A study of Mus musculus with 12 samples.

Results

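The 10 genes Pax5, Ebf1, Bach2, Bcl6, Spib, Spi1, Foxo1, Ets1, Irf8 and Klf2 encode transcription factors that are known for establishing or maintaining the B cell state. They were chosen by name, with earlier results of these data known, and all 10 were among the 24189 genes listed in every RNA-seq file. The study asked how the loss of Xbp1 or of Mist1, the product of the gene Bhlha15, alters gene expression in antibody-secreting cells. Their level was measured by RNA-seq in 10 libraries, 2 for each of 5 groups, and the binding of Mist1 near them was taken from 2 lists of ChIP-seq peaks.

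All mice were on the C57BL/6 background. Plasmablasts (PBs) were obtained on day 8 of the iGB culture, in which splenic B cells grow on feeder cells that carry CD40 ligand and BAFF, and were sorted by surface markers, among them the presence of CD138 and the absence of CD23. They came from Xbp1(fl/fl) mice, the control PBs, from Cd23-Cre Xbp1(fl/fl) mice, the Xbp1-deficient PBs, and from Bhlha15(CreER/CreER) mice, the Mist1-deficient PBs. Plasma cells (PCs) were splenic cells isolated by expression of TACI and CD138 on day 7 after immunization with NP-KLH. The Mist1-deficient PCs were from Cd23-Cre Bhlha15(fl/fl) mice, and the control PCs carry the label wildtype, while the study's supplement names them Bhlha15(fl/fl). Cd23-Cre deletes floxed alleles in mature B cells, whereas the CreER allele is a knock-in that replaces Bhlha15 in all cells of the animal. The loss of Mist1 was therefore produced in different ways in PBs and in PCs. The Mist1 peaks were from Bhlha15(fl/fl) R26(BirA/BirA) PBs after 4 days of LPS, in which Mist1 carries a biotin tag. The study describes the libraries of the control PBs, the Xbp1-deficient PBs and the PCs as independent experiments, but neither it nor the labels tie libraries to animals, and the Mist1-deficient PBs are not covered by this statement. The p-values therefore measure the spread between these libraries, whatever its source.

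The 10 factors fall into several roles. Ebf1 and Pax5 specify and maintain commitment to the B cell lineage, and Ets1, Spib, Spi1 (PU.1) and Irf8 act with them in mature B cells. Foxo1 and Klf2 are linked to the quiescence and migration of lymphocytes, and PI3K signaling is known to restrain both. Bach2 and Bcl6 repress Prdm1, the gene of the plasma cell regulator Blimp1, which in turn is known to repress Pax5, Bcl6, Spib and other B cell genes.

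The level of each gene is given as TPM, a share of all transcripts that accounts for transcript length, as deposited, so that genes could be compared with each other. The 10 genes together reached 555 and 564 TPM in control PBs, 727 and 746 in Xbp1-deficient PBs, 538 and 547 in Mist1-deficient PBs, 728 and 736 in control PCs and 597 and 601 in Mist1-deficient PCs. Irf8 and Klf2 differed most in their share of this sum between PBs and PCs. Irf8 made up 35.6 to 39.5% of it in the 6 PB libraries and 8.61 to 12.3% in the 4 PC libraries. Klf2 made up 0.677 to 1.70% in the PB libraries and at least 22.5% in each PC library.

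In control PBs, the mean levels ran in the order Irf8, Ets1, Spi1, Foxo1, Spib, Ebf1, Pax5, Bcl6, Klf2 and Bach2. The ranges of Ebf1 and Pax5 overlapped there, whereas the other neighbours in this order did not. In control PCs, the order was Klf2, Ets1, Spi1, Irf8, Foxo1, Spib, Pax5, Ebf1, Bcl6 and Bach2, with overlapping ranges of Irf8 with Foxo1, of Foxo1 with Spib and of Bcl6 with Bach2. The repressors Bcl6 and Bach2 were among the 3 lowest in control PBs and were the 2 lowest in control PCs.

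Pax5, which activates B cell surface genes and represses genes of other lineages, was at 10.5 and 11.6 TPM in control PBs, 13.8 and 14.4 in Xbp1-deficient PBs and 10.7 and 8.90 in Mist1-deficient PBs. In PCs, Pax5 was at 28.8 and 44.0 TPM in the controls and at 33.0 in both Mist1-deficient libraries. All PC libraries were above all PB libraries. Pax5 nonetheless ranked in the middle of the genes detected, as 68.1% of the genes with a mean of at least 1 TPM were higher than Pax5 in control PBs and 41.0% in control PCs. Ebf1, which acts upstream of Pax5, was at 10.8 and 11.4 TPM in control PBs, 15.6 and 14.2 in Xbp1-deficient PBs, 10.4 on average in Mist1-deficient PBs (SD 0.564, n = 2), 17.8 and 21.3 in control PCs and 17.2 and 16.9 in Mist1-deficient PCs. The PC libraries were again all above the PB libraries.

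The Ets family members Spib and Spi1 bind similar motifs, but differed in their pattern. Spib was at 13.5 and 22.7 TPM in control PBs, 28.1 and 24.3 in Xbp1-deficient PBs, 16.1 and 13.2 in Mist1-deficient PBs, 50.7 and 74.1 in control PCs and 56.5 and 63.9 in Mist1-deficient PCs. Spib was thus higher in every PC library than in every PB library. Spi1, which is also highly expressed in myeloid cells, was between 75.7 and 88.6 TPM in all 10 libraries and had the narrowest range of the 10 genes relative to its level. Ets1, the third Ets family member, was at 132 and 140 TPM in control PBs, at 179 in both Xbp1-deficient libraries, at 144 and 126 in Mist1-deficient PBs, at 106 and 126 in control PCs and at 104 and 112 in Mist1-deficient PCs. Irf8, an interferon regulatory factor that partners with PU.1, was the highest of the 10 genes in PBs. It was at 219 and 218 TPM in control PBs, 270 and 265 in Xbp1-deficient PBs, 196 and 211 in Mist1-deficient PBs, 62.7 and 83.8 in control PCs and 72.1 and 73.7 in Mist1-deficient PCs.

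Foxo1, a forkhead factor that PI3K and Akt keep out of the nucleus, was at 74.5 and 68.5 TPM in control PBs, 124 and 145 in Xbp1-deficient PBs, 79.6 and 73.5 in Mist1-deficient PBs, 67.8 and 71.2 in control PCs and 67.7 and 70.0 in Mist1-deficient PCs. The Xbp1-deficient libraries stood apart, as the other 8 libraries lay between 67.7 and 79.6 TPM. Klf2, a zinc finger factor that promotes the expression of the egress receptor S1pr1, was at 5.79 and 5.88 TPM in control PBs, 5.26 and 5.35 in Xbp1-deficient PBs, 3.70 and 9.14 in Mist1-deficient PBs, 291 and 211 in control PCs and 158 and 134 in Mist1-deficient PCs. In each PB group, only Bach2 was lower than Klf2, whereas Klf2 was the highest of the 10 genes in both PC groups.

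The repressor Bach2 was below 1 TPM in all 6 PB libraries, with 0.634 and 0.932 TPM in control PBs, 0.166 and 0.333 in Xbp1-deficient PBs and 0.806 and 0.637 in Mist1-deficient PBs. It was at 7.38 and 8.76 TPM in control PCs and at 6.78 and 6.69 in Mist1-deficient PCs. Bcl6, the regulator of germinal center B cells, was at 7.22 and 8.25 TPM in control PBs, 11.8 and 13.7 in Xbp1-deficient PBs, 8.78 and 8.16 in Mist1-deficient PBs, 7.27 and 10.5 in control PCs and 8.69 and 7.99 in Mist1-deficient PCs. The Bcl6 values of control PBs and of both PC groups overlapped. Exons of Pax5, Bach2 and Foxo1 overlap a gene on the opposite strand in the annotation, and since the strand setting of the read counting is not given in the sources used here, reads of these pairs may not have been kept apart.

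**Figure D1:**
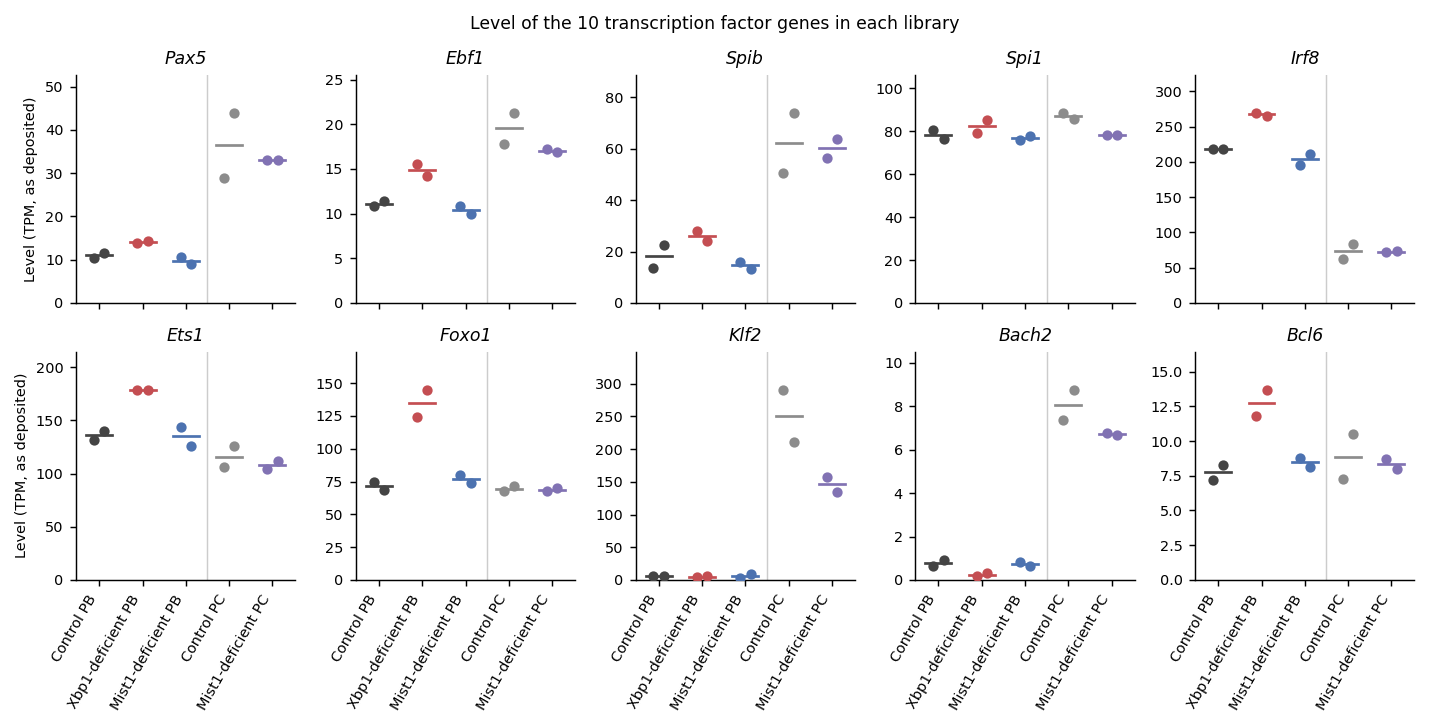
Level of each of the 10 genes in TPM as deposited (y axis, linear, starting at 0, with its own scale for each gene) in the 10 libraries, 2 for each of the 5 groups on the x axis. Points are libraries and bars are group means. Klf2, Bach2, Pax5, Spib and Ebf1 were higher in every PC library than in every PB library, Irf8 was lower, and Foxo1 was highest in the 2 Xbp1-deficient libraries. The share of all genes so separated was not counted. Between control PCs and control PBs, 37.6% of all genes were called higher and 38.4% lower.

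The targeted genes were examined first. Bhlha15 was at 176 and 159 TPM in control PBs and at 0.210 and 0.551 TPM in Mist1-deficient PBs. In PCs, it was at 258 and 242 TPM in the controls and at 14.4 and 16.6 TPM in the Mist1-deficient libraries. Bhlha15 was also at 3.57 and 2.60 TPM in Xbp1-deficient PBs, 61.1-fold lower than in control PBs (adjusted p = 7.61e-06, limma). Xbp1 itself was at 3168 and 3043 TPM in control PBs and at 1981 and 2024 TPM in Xbp1-deficient PBs, and the value for the whole gene does not separate the deleted part. Prdm1, the target of Bach2 and Bcl6, had group means from 187 to 268 TPM, and Irf4, which acts with it, had group means from 661 to 918 TPM.

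Markers of other cell types were present in these sorted populations. The sum of 10 fibroblast markers, in a culture on feeder cells of fibroblast origin, was 1240 to 1485 TPM in control PBs, 1799 to 1955 in Xbp1-deficient PBs, 985 to 1636 in Mist1-deficient PBs and 25.9 to 31.3 in PCs. The sum of 11 neutrophil markers was 13.5 to 13.9 TPM in control PBs, 139 to 140 in Xbp1-deficient PBs, 6.36 to 12.7 in Mist1-deficient PBs and 469 to 1003 in PCs. The 12 T and NK cell markers summed to 11.1 to 18.0 TPM in PBs, where Cd8a was at 0 in all 6 libraries and Cd3e in all but 1, to 113 to 117 TPM in control PCs and to 137 to 171 TPM in Mist1-deficient PCs. The 15 markers of monocytes, macrophages and dendritic cells summed to 33.2 to 50.3 TPM in PBs and to 193 to 255 TPM in PCs, and 4 erythroid markers stayed below 1 TPM in sum in PBs and reached 5.06 to 12.5 TPM in PCs. The 9 plasma cell markers summed to 42048 to 42075 TPM in control PBs, 21306 to 21929 in Xbp1-deficient PBs, 38689 to 42143 in Mist1-deficient PBs and 91694 to 98975 in PCs, and 9 B cell markers to 36060 to 39438 TPM in PBs and 13203 to 14966 TPM in PCs. Both PBs and PCs thus expressed the markers of their label. Fcer2a, the gene of CD23, was at 54.8 to 76.9 TPM in the PBs sorted as CD23-. From control to Xbp1-deficient PBs, mean Mzb1 went from 15284 to 3627 TPM and Igj from 22087 to 14078, the 2 largest parts of the plasma cell sum. The targeted Xbp1, Tnfrsf17 (32.6 to 19.5), Slamf7 (299 to 273) and Sdc1 (161 to 157) were also lower. Prdm1 (190 to 268), Irf4 (667 to 918) and Tnfrsf13b (236 to 275) were higher, so this sum mainly reflects a few genes. In such bulk libraries, a smaller share of cells of a type, less RNA per cell and changes of single genes cannot be told apart by a sum.

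**Figure D2:**
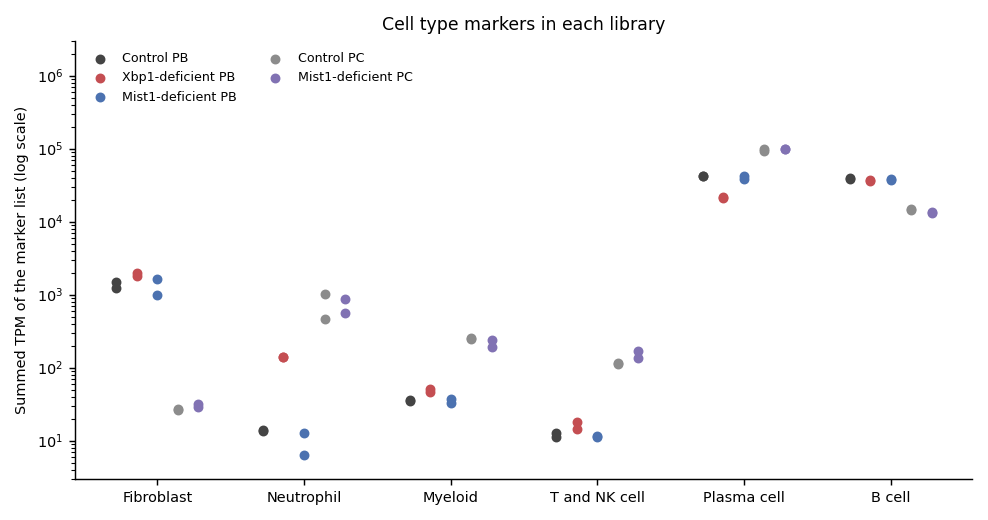
Summed TPM of 6 lists of cell type markers (x axis) in each library (points, colored by group) on a log scale. The fibroblast sum was at least 985 TPM in the PB libraries and at most 31.3 TPM in the PC libraries, and the neutrophil sum of both Xbp1-deficient PB libraries lay above that of the other PB libraries.

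The first comparison asked whether the 10 genes differed in PBs without Xbp1. Foxo1 and Bcl6 were more highly expressed in Xbp1-deficient than in control PBs, and none of the 9 genes tested was called lower. Bach2 was too low in PBs to be tested, with 0 of 6 libraries at 1 TPM, and its deposited values were lower in both Xbp1-deficient libraries than in both controls. The test was limma on log2(scaled TPM + 0.1), in which TPM were first scaled by the median of ratios between libraries, and a gene was called at a Benjamini-Hochberg adjusted p below 0.05 over the 12125 genes tested. Of all genes tested, 10.3% were called higher and 18.0% lower, against 2 and 0 of the 9 members. The scaling factors were 0.944 and 0.999 for control PBs and 1.12 for both Xbp1-deficient libraries, so that each log2 fold change lies below that of the deposited TPM. The median log2 fold change was 0.18 for the 9 genes and 0.004 for all genes.

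Foxo1 rose 1.62-fold on the scaled values, with a log2 fold change of 0.70 (SE 0.10, 95% confidence interval 0.47 to 0.92, adjusted p = 0.00113, n = 2 libraries per group), and both Xbp1-deficient libraries were above both controls. It passed the threshold under each of 14 alternative settings, with adjusted p from 2.17e-04 to 0.0158. Bcl6 rose 1.42-fold, with a log2 fold change of 0.50 (SE 0.12, 95% confidence interval 0.22 to 0.79, adjusted p = 0.0170). The call of Bcl6 was lost without control PB replicate 1 (0.45, adjusted p = 0.117), without control PB replicate 2 (0.56, adjusted p = 0.0570) and without Xbp1-deficient PB replicate 2 (0.39, adjusted p = 0.136).

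The lineage factors were not called. Pax5 differed by 0.15 on the log2 scale (95% confidence interval -0.09 to 0.39, adjusted p = 0.333) and Ebf1 by 0.21 (-0.03 to 0.45, adjusted p = 0.169). Spib differed by 0.36 (-0.09 to 0.81, adjusted p = 0.207), and this value depended on the control libraries, since it was 0.04 (adjusted p = 0.910) without control PB replicate 1 and 0.69 (adjusted p = 0.0172) without control PB replicate 2. Ets1 differed by 0.18 (0.03 to 0.34, adjusted p = 0.0761), Irf8 by 0.09 (-0.13 to 0.30, adjusted p = 0.548), Spi1 by -0.14 (-0.35 to 0.07, adjusted p = 0.301) and Klf2 by -0.34 (-1.21 to 0.53, adjusted p = 0.553). The interval of Klf2 was the widest and allows a change of more than 2-fold downward. Bach2, tested only when low genes were kept, was at -1.51 with an adjusted p of 0.0531.

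The number of genes called depended on the scaling. With TPM as deposited, the median of all genes moved to 0.21, and 5 of the 10 genes were called higher: Foxo1 at 0.91, Bcl6 at 0.71, Ebf1 at 0.42, Ets1 at 0.39 and Irf8 at 0.29. With quantile normalization, 4 genes were called higher, namely Foxo1 at 0.85, Bcl6 at 0.52, Ets1 at 0.34 and Irf8 at 0.26, with a median of all genes of 0.07. The split of all calls moved as well, from 1250 of 3436 genes higher (36.4%) with the scaling used to 3423 of 4780 (71.6%) with TPM as deposited. Only Foxo1 and Bcl6 were called under all 3 scalings.

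**Figure D3:**
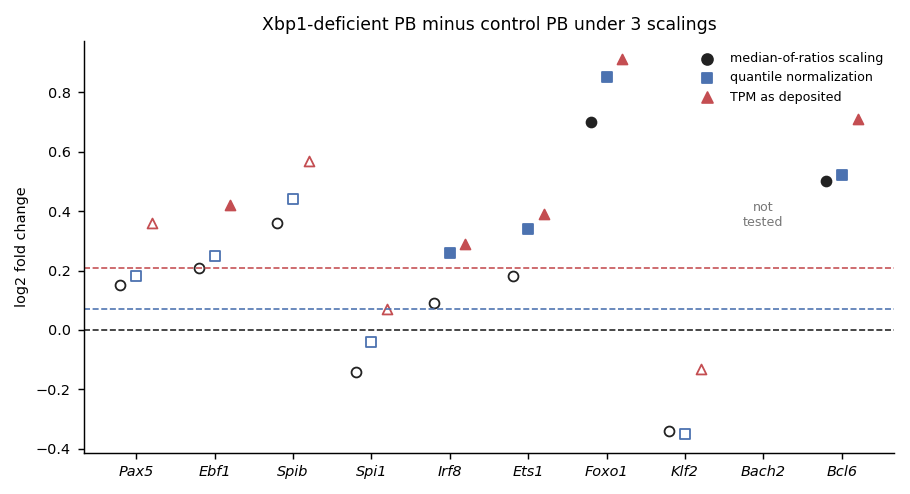
Log2 fold change of each gene between Xbp1-deficient and control PBs (y axis) under 3 scalings of the libraries (symbols), with filled symbols for an adjusted p below 0.05 and dashed lines for the median of all genes under the scaling of the same color. The values moved upward together with the median from median-of-ratios scaling to TPM as deposited, and Foxo1 and Bcl6 were filled under each scaling.

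Other lists of B cell genes were examined beside the 10 factors. In a list of 12 genes of homing, survival and metabolism, several of them known targets of Foxo1 or Klf2, 8 were tested, 3 rose and 1 fell, at a background of 10.3% of all genes higher and 18.0% lower. S1pr1, the receptor for lymphocyte egress, went from 11.8 and 13.1 TPM in control PBs to 24.1 and 30.3 TPM in Xbp1-deficient PBs (log2 fold change 0.91, SE 0.12, adjusted p = 7.46e-04, limma). Irs2, an adaptor of insulin signaling, went from a mean of 14.5 to 28.8 TPM (0.75, adjusted p = 0.00901), and Cd55 fell from 44.7 to 35.7 TPM on average (-0.53, adjusted p = 0.00160). Of 20 B cell surface and signaling genes, several of them activated by Pax5, 1 rose and 8 fell. Bank1, an adaptor of the B cell receptor, rose from 2.59 to 8.50 TPM (1.45, adjusted p = 0.00231), whereas Fcrla, an Fc receptor-like protein, fell from 91.0 to 7.40 TPM (-3.81, adjusted p = 1.48e-07), and the B cell receptor component Cd79a and the surface proteins Cd37 and Cd24a were also lower. Of 9 germinal center genes tested, 2 fell and none rose, with Gcsam, a germinal center signaling protein, going from 15.2 to 6.24 TPM (-1.48, adjusted p = 2.18e-05).

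Of 24 other B cell transcription regulators tested, 4 rose and 2 fell in Xbp1-deficient PBs, with medians of 0.11 for the list and 0.004 for all genes. The counts of this paragraph stand beside 10.3% of all genes called higher and 18.0% called lower. Mef2b, a regulator of Bcl6 in germinal center B cells, rose from 123 to 189 TPM (0.42, adjusted p = 0.00697, limma), and Lef1, a Wnt pathway factor of early lymphocytes, fell from 42.7 to 34.4 TPM (-0.52, adjusted p = 0.00422). Pou2af1, the coactivator of the octamer-binding factors, was the highest of this list and differed by 0.02 (adjusted p = 0.943). Of 8 plasma cell regulators, none rose and 4 fell, among them the targeted Xbp1 and Bhlha15, whose loss is given above. Creb3l2, a transcription factor of the secretory pathway, fell from 98.2 to 41.2 TPM (-1.46, adjusted p = 5.59e-06, limma). Prdm1 (0.28), Irf4 (0.25) and Ell2 (0.03) were not called, so no general fall of these regulators is read from the count. Of the neutrophil markers, 6 of 7 tested rose in the same comparison, for example Ngp by 4.25 on the log2 scale (adjusted p = 6.32e-04), and Foxo1 is also expressed in myeloid and stromal cells. The part of the neutrophil and fibroblast markers in the values of Foxo1 and Bcl6 was not tested.

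The second comparison addressed Mist1 in PBs and used the same 2 control libraries as that of Xbp1. None of the 9 genes tested was called between Mist1-deficient and control PBs, at a background of 0.0495% of all genes called higher and 0.272% called lower. At an unadjusted p below 0.05, limma called 0 of the 9 genes as well, and the smallest unadjusted p, that of Foxo1, was 0.193. The log2 fold change was 0.14 for Foxo1 (95% confidence interval -0.09 to 0.37), 0.17 for Bcl6 (-0.11 to 0.46), -0.13 for Pax5 (-0.37 to 0.11), -0.05 for Ebf1 (-0.29 to 0.19) and -0.23 for Spib (-0.68 to 0.22). It was 0.01 for Spi1 (-0.20 to 0.22), 0.03 for Ets1 (-0.12 to 0.19) and -0.06 for Irf8 (-0.28 to 0.16). These intervals leave room for changes of the size of the Bcl6 difference in Xbp1-deficient PBs only for Spib and Klf2. Klf2 was at 0.04 with an interval of -0.83 to 0.91, as its values of 3.70 and 9.14 TPM in the Mist1-deficient libraries enclosed both controls.

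Since Xbp1-deficient PBs were also low in Bhlha15, the Mist1-deficient and the Xbp1-deficient PBs were compared directly in the same model. Foxo1 was lower in Mist1-deficient than in Xbp1-deficient PBs by 1.47-fold (log2 difference -0.56, SE 0.10, 95% confidence interval -0.78 to -0.33, adjusted p = 0.00374, limma) and passed the threshold under all 14 alternative settings. No other member was called, while 17.8% of all genes were higher and 9.34% lower. Bcl6 was at -0.33 (-0.61 to -0.05, adjusted p = 0.0835), Pax5 at -0.28 (-0.52 to -0.04, adjusted p = 0.0847), Ebf1 at -0.26 (-0.50 to -0.02, adjusted p = 0.101) and Spib at -0.59 (-1.04 to -0.14, adjusted p = 0.0564). Spib was called in 6 of the 14 alternatives. With TPM as deposited, 7 of the 9 genes were lower and the median of all genes was at -0.26, with 1266 of 5243 calls higher compared to 2155 of 3287 with the scaling used. Klf2 turned on the library with 3.70 TPM, without which it was higher by 1.10 (adjusted p = 0.00169). The control PBs entered this model as well, but not this difference.

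The third comparison addressed Mist1 in PCs. Klf2 was less expressed in Mist1-deficient than in control PCs, and the other 9 genes were not called. Of all 12028 genes tested, 13.3% were called higher and 16.2% lower, and the median log2 fold change was -0.08 for the 10 genes and 0.014 for all genes. Klf2 fell 1.68-fold, from 291 and 211 TPM to 158 and 134 TPM (log2 fold change -0.75, SE 0.18, 95% confidence interval -1.18 to -0.32, adjusted p = 0.0269, limma). Both Mist1-deficient libraries were below both controls.

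This call of Klf2 was not stable. Its adjusted p was 0.0516 when low genes were kept, 0.0905 when the variance was not modeled as a trend over expression, 0.0522 without Mist1-deficient PC replicate 1 (-0.86) and 0.138 without Mist1-deficient PC replicate 2 (-0.64). The size of the difference depended on the controls, as it was -0.49 (adjusted p = 0.0176) without control PC replicate 1 and -1.01 (adjusted p = 0.00166) without control PC replicate 2. Klf2 is also expressed in T cells and monocytes. The T and NK cell sum was 113 and 117 TPM in control PCs and 137 and 171 TPM in Mist1-deficient PCs, and 3 of 11 markers tested rose, among them Cd3d by 0.64 (adjusted p = 0.0389). The sum of the myeloid markers was 255 and 250 TPM in control PCs and 239 and 193 TPM in Mist1-deficient PCs, that of the neutrophil markers 1003 and 469 TPM and 857 and 568 TPM, and no marker of these lists was called. The part of these cells in the value of Klf2 was not tested.

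Of the other genes, Pax5, Bcl6 and Spib had intervals about as wide as that of Klf2. Foxo1 differed by 0.01 on the log2 scale (95% confidence interval -0.14 to 0.15), Spi1 by -0.14 (-0.29 to 0.02), Ets1 by -0.08 (-0.28 to 0.13), Ebf1 by -0.17 (-0.41 to 0.06), Irf8 by 0.03 (-0.27 to 0.32) and Bach2 by -0.23 (-0.54 to 0.07). Pax5 differed by -0.09 (-0.52 to 0.34), Bcl6 by -0.05 (-0.47 to 0.38) and Spib by -0.01 (-0.41 to 0.39). The controls were far apart for Pax5 and Spib, and control PC replicate 2 was the higher one for both. Pax5 was called lower without control PC replicate 1, at -0.37 (adjusted p = 0.0152, limma), and was at 0.18 (adjusted p = 0.0994) without control PC replicate 2, so that its direction depended on the control. Spib was likewise at -0.25 (adjusted p = 0.0846) and 0.23 (adjusted p = 0.0978). Without control PC replicate 2, Spi1 was called lower at -0.19 (adjusted p = 0.0411) and Irf8 higher at 0.20 (adjusted p = 0.0427).

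Of the 10 homing, survival and metabolism genes tested in PCs, several of them known targets of Foxo1 or Klf2, none rose and 2 fell upon loss of Mist1. These counts and those of the lists below stand beside 13.3% of all genes called higher and 16.2% called lower, and nothing particular to the lists is read from them. Itgb7, an integrin subunit for homing to the gut, fell from 190 and 168 TPM to 88.5 and 91.3 TPM (-0.97, SE 0.09, adjusted p = 0.00213, limma), and Ccng2, a cyclin induced by Foxo factors, fell from 124 to 103 TPM on average (-0.25, adjusted p = 0.0211). S1pr1 was at 57.7 and 75.1 TPM in control PCs and at 66.3 and 68.8 TPM in Mist1-deficient PCs, so that these groups overlapped. Of 25 other B cell transcription regulators, 3 rose and 5 fell. The octamer-binding factor Pou2f2 (Oct2) went from 123 and 122 TPM to 65.4 and 56.9 TPM (-0.98, SE 0.08, adjusted p = 0.00184), while Tcf3, which encodes E2A, and Pou2af1 each rose by 0.30 (adjusted p = 0.0136 and 0.0241). Of 10 germinal center genes, 1 rose and 4 fell, with Nuggc, a nuclear GTPase, going from 190 to 90.1 TPM (-1.06, adjusted p = 0.00130) and Fas from 24.9 to 13.0 TPM (-0.91, adjusted p = 0.00213). Of 19 B cell surface and signaling genes tested, 1 rose and 4 fell. Of the 8 plasma cell regulators, 1 rose, namely Irf4 by 0.38 (adjusted p = 0.00952, limma), and 2 fell, among them the targeted Bhlha15.

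**Figure D4:**
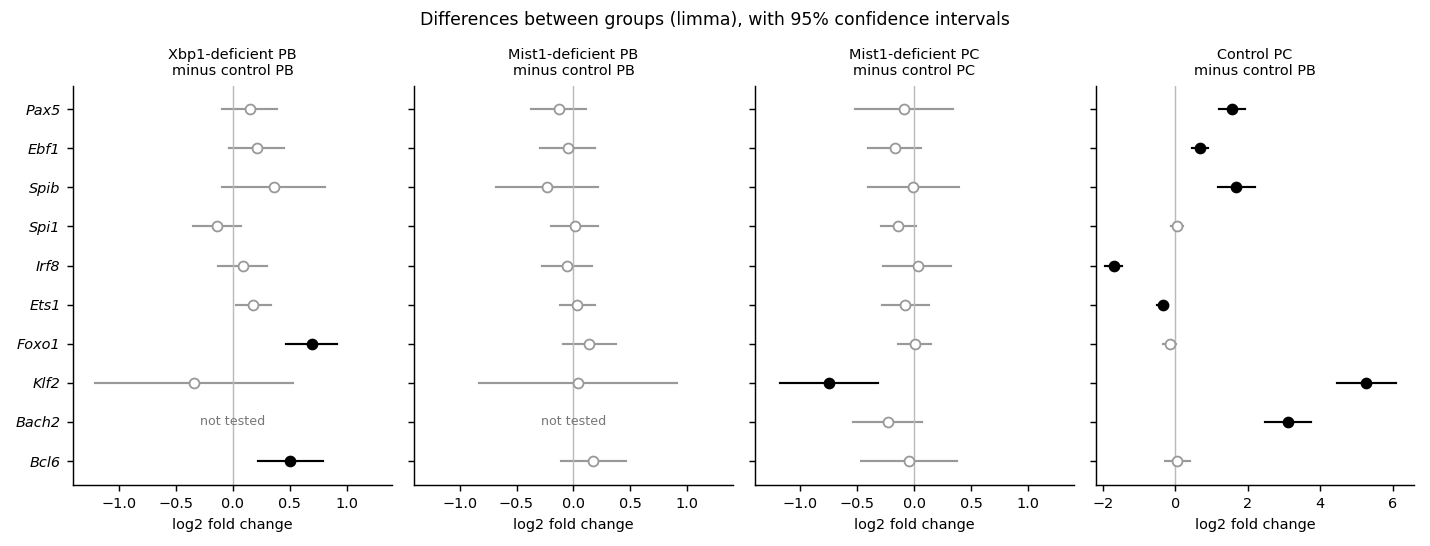
Log2 fold change of each gene (x axis) in 4 comparisons (panels), estimated by limma from 2 libraries per group, with lines for the 95% confidence interval and filled points for an adjusted p below 0.05. The scale of the fourth panel is wider than that of the others. Foxo1 and Bcl6 were called in Xbp1-deficient PBs, none of the genes in Mist1-deficient PBs, Klf2 in Mist1-deficient PCs, and 7 genes between control PCs and control PBs, of which Bach2 was tested only through the PC libraries.

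Whether the effect of Mist1 loss differed between PCs and PBs was tested in one model over all 10 libraries. None of the 10 genes was called, compared to 1.94% of all 13230 genes called higher and 4.17% called lower. At an unadjusted p below 0.05, 0 of the 10 genes passed, with 0.162 as the smallest unadjusted p in limma, that of Klf2. The difference of the Klf2 effects was -0.78 (SE 0.51, 95% confidence interval -1.93 to 0.38, adjusted p = 0.425). Without Mist1-deficient PB replicate 1, the library with 3.70 TPM, it was -1.47 (adjusted p = 0.0237). Itgb7 and Pou2f2, in contrast, differed between PCs and PBs in the effect of Mist1 loss, by -1.17 (adjusted p = 0.00768) and -0.77 (adjusted p = 0.00939). The allele that removed Mist1 differed between PBs and PCs as well, so that cell type, culture and allele cannot be told apart.

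The largest differences of the 10 genes were between control PCs and control PBs, libraries that also served as controls above. Klf2, Bach2, Spib, Pax5 and Ebf1 were higher in PCs, and Irf8 and Ets1 were lower. Bach2 entered this test only through the PC libraries, as no PB library reached 1 TPM, which favored its call, and it is kept apart from the counts. Of all genes, 37.6% were called higher and 38.4% lower in PCs, compared to 4 and 2 of the other 9 genes, so that the share called was close to that of all genes. With a stricter rule of more than 3-fold and a mean above 5 TPM in the higher group, which 7.77% of all genes passed as higher and 6.19% as lower, Klf2 and Spib were higher and Irf8 was lower, and Bach2 also met the rule. The PBs were cultured and the PCs were taken from immunized mice, with different sort gates, so that cell type, culture and sort cannot be told apart.

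Klf2 was 38.7-fold higher in control PCs (log2 fold change 5.27, SE 0.36, adjusted p = 1.44e-06, limma). Bach2 was 8.68-fold higher (3.12, SE 0.28, adjusted p = 8.95e-06). Spib was 3.22-fold higher (1.69, SE 0.23, adjusted p = 1.10e-04). Pax5 and Ebf1, the factors of lineage commitment, were 2.97-fold (1.57, SE 0.16, adjusted p = 1.47e-05) and 1.61-fold higher (0.69, SE 0.10, adjusted p = 1.59e-04). Irf8 was 3.26-fold lower in control PCs (-1.70, SE 0.11, adjusted p = 9.91e-07), and Ets1 was 1.28-fold lower (-0.35, SE 0.07, adjusted p = 0.00163). Bcl6 (0.06, 95% confidence interval -0.29 to 0.42), Spi1 (0.04, -0.12 to 0.20) and Foxo1 (-0.15, -0.33 to 0.02) were not called. Klf2, Spib, Pax5, Ebf1, Irf8 and Ets1 were past the threshold in the same direction under all 20 alternative settings. Spi1 was called higher with TPM as deposited, at 0.15 (adjusted p = 0.0309), where the median of all genes was 0.12.

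An alternative chosen after seeing the data compared the Mist1-deficient PCs with the Mist1-deficient PBs in the same model of all 10 libraries. Scaling and spread were thus again estimated with the control libraries included, and the allele that removed Mist1 differs between these groups. The log2 fold change there was 4.50 for Klf2, 2.95 for Bach2, 1.92 for Spib, 1.63 for Pax5, 0.58 for Ebf1, -1.60 for Irf8 and -0.45 for Ets1. All of these were called, with the same reservation for Bach2. Foxo1 was called in addition, at -0.27 (adjusted p = 0.00891, limma).

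The pathway genes around the 10 factors also differed between control PCs and control PBs. At a background of 37.6% of all genes higher and 38.4% lower, all 10 homing, survival and metabolism genes tested were higher in PCs, with a list median of 2.28 compared to 0.006 for all genes. Il7r, at no more than 0.150 TPM in the PB libraries, entered this test only through the PC libraries. Itgb7 went from a mean of 6.39 TPM in PBs to 179 TPM in PCs (4.67, adjusted p = 4.76e-09, limma), and Irs2 from 14.5 to 76.8 TPM (2.28, adjusted p = 7.35e-07). Of 20 B cell surface and signaling genes, 10 were higher and 9 lower in PCs. Bank1 went from 2.59 to 95.6 TPM (5.04, adjusted p = 3.77e-08), whereas Sdc4, a heparan sulfate proteoglycan, went from 316 to 84.7 TPM (-2.01, adjusted p = 1.15e-08). Of 25 other B cell transcription regulators, 13 were higher and 5 lower, with the smallest adjusted p in each direction for Tcf4, which encodes the E protein E2-2 (1.29, adjusted p = 9.59e-08), and for Lef1 (-2.68, adjusted p = 3.16e-08). Of 10 germinal center genes, 2 were higher and 7 lower, among them the death receptor gene Fas (-1.96, adjusted p = 3.51e-08). Of the 8 plasma cell regulators, 3 were higher and none was lower, while Prdm1 (-0.14, adjusted p = 0.331) and Irf4 (-0.02, adjusted p = 0.862) were not called.

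Markers of other cells moved with the same comparison. All 11 neutrophil markers, all 11 T and NK cell markers tested and 12 of 14 myeloid markers tested were higher in control PCs, and all 9 fibroblast markers tested were lower. Many of them entered the test only through PCs or only through PBs, which favored these calls. In all 6 PB libraries, 4 of 11 neutrophil, 9 of 12 T and NK cell and 11 of 15 myeloid markers were below 1 TPM. The same held for 7 of 10 fibroblast markers in all 4 PC libraries. The T and NK cell markers summed to 113 and 117 TPM in control PCs, where Klf2 alone was at 291 and 211 TPM and Bach2 at 7.38 and 8.76 TPM, and T cells express both genes. Of the 9 B cell markers, 2 were higher and 6 lower in control PCs. Control PC replicate 2 had a higher value than control PC replicate 1 for 8 of the 10 genes, all but Spi1 and Klf2. The part of these cells in the differences of the 10 genes was not tested.

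The Mist1 peaks were then examined at the 10 genes. Mist1 is a basic helix-loop-helix factor that binds E-box motifs, written CANNTG, and CAGCTG is an E-box of this kind. The 2 peak lists used here held 29413 and 30247 peaks, which is fewer than the study describes, and shared 23804 regions, whose median width was 1038 bp. All counts of regions refer to these lists. A common region lay within 1 kb of an annotated start site of 9 of the 10 genes, that is of all but Bcl6. The same held for 35.8% of 22359 protein-coding genes and for 63.6% of the 10755 protein-coding genes with a mean of at least 1 TPM in PBs. All 10 genes had a common region at a start site or in the gene body, compared to 43.8% of all protein-coding genes. That share includes genes not expressed in PBs, and gene length was not taken into account. When peaks had to overlap by at least 50%, Foxo1 lost its start site region, which left 8 genes, and Bcl6 lost its only region, which left 9 genes with a region at a start site or in the gene body. These cells had been stimulated with LPS, and peaks were not measured in the iGB-derived PBs or in the PCs.

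The number of common regions in each gene and 10 kb around it did not run in the order of the expression levels. Ebf1, with a gene length of 391 kb, had 23 regions, Bach2 (347 kb) had 19, Ets1 (122 kb) had 15, Pax5 (180 kb) had 9 and Foxo1 (81.8 kb) had 8. Irf8 had 10 regions, although the gene spans only 20.3 kb. Spib had 4, Spi1 and Klf2 had 2 each and Bcl6 had 1. Bach2, which was below 1 TPM in all PB libraries, thus carried more regions than Irf8, the highest of the 10 genes in PBs. The region of Bcl6 was at chr16:23982417-23983754 (mm9) in an intron, 5.85 kb downstream of the start site, and held 2 CANNTG motifs, both of them CAGCTG.

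**Figure D5:**
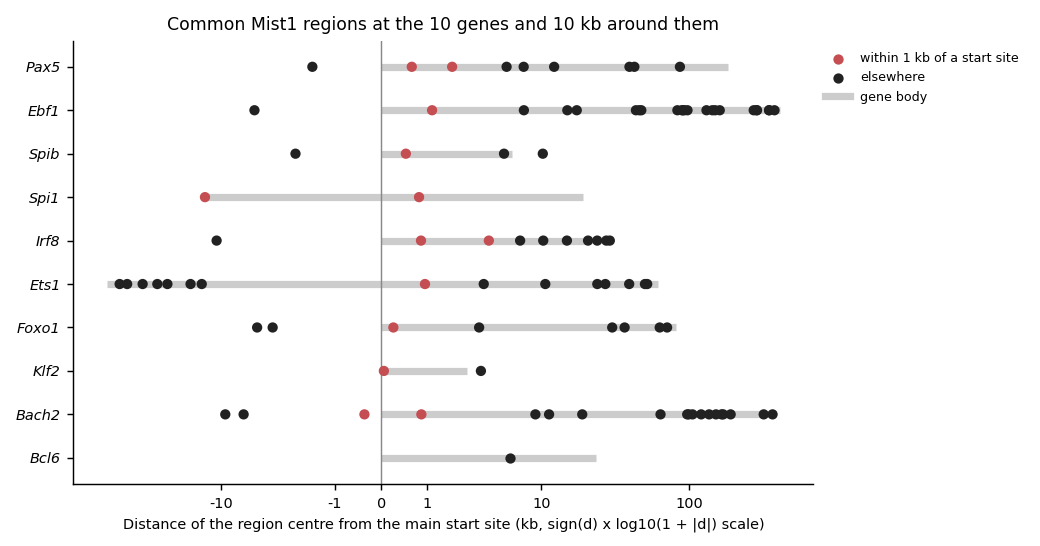
Position of the common Mist1 regions (points) relative to the main start site of each gene in the direction of transcription (x axis, kb, compressed by log10 on both sides of 0), with gray bars for the gene body. A region within 1 kb of any annotated start site was found for 9 of the 10 genes, and Bcl6 had only the region in its intron.

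The sequences before the start sites of 4 genes are shown, since Foxo1 and Bcl6 were called in Xbp1-deficient PBs, Klf2 was called in Mist1-deficient PCs and Irf8 was the highest of the 10 genes in PBs. Each is the 200 bases that precede the start site in the mm9 genome, 5′ to 3′ on the strand of the gene, with CANNTG motifs in capitals. The windows are at chr3:52072059-52072258 for Foxo1 (plus strand), chr16:23988939-23989138 for Bcl6 (minus strand), chr8:74842732-74842931 for Klf2 (plus strand) and chr8:123260058-123260257 for Irf8 (plus strand). None of the 4 windows overlaps an annotated exon.
Foxo1: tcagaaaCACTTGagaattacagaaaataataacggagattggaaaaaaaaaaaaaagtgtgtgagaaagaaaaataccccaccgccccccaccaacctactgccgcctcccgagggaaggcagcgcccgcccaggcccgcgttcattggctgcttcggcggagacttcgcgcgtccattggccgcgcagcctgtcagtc
Bcl6: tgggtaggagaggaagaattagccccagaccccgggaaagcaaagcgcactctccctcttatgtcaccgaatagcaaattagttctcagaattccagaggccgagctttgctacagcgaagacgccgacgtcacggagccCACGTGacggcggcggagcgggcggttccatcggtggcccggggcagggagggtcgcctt
Klf2: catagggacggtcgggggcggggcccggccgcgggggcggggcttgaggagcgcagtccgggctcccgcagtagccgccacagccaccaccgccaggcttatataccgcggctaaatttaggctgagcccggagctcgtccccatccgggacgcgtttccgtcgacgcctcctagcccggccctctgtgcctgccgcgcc
Irf8: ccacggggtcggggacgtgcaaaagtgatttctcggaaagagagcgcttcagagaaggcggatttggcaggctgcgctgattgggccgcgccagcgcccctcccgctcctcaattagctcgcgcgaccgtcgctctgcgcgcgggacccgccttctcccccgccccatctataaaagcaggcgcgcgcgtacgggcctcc

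All 200 bases of the Foxo1, Klf2 and Irf8 windows lay inside a common Mist1 region, whereas the Bcl6 window held no base of one. Foxo1 and Bcl6 each had 1 CANNTG motif, and the Klf2 and Irf8 windows had none. CANNTG was found in 54.3% of such windows of the 22359 protein-coding genes, and CAGCTG, which was in none of the 10 windows, in 9.58%. Both motifs are found at the same place on either strand, and a CAGCTG is also a CANNTG. The common region over the Klf2 start site was at chr8:74842484-74843462, was 979 bp wide and held 1 CANNTG motif, that is 1.02 per kb. The region over the Foxo1 start site was at chr3:52069954-52074965, was 5012 bp wide and held 25 CANNTG motifs, or 4.99 per kb. All common regions held 6.25 CANNTG per kb. The other Klf2 region, centered 3.45 kb downstream of the start site, held 9.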

How the data were processed

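RNA-seq was performed by the authors on 10 libraries. Reads were trimmed with cutadapt, aligned to mm9 with STAR (2.4.2) and counted with featureCounts (1.5), per the submitters' notes. The deposited values are TPM per gene, computed by the authors without immunoglobulin and T cell receptor genes. TPM hold no read number, and sequencing depth is therefore unknown. The PC files list 543 more names, all at 0. For Mist1, reads were aligned with Bowtie (1.0.0), and the authors deposited peak positions called with MACS against input for each experiment.

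TPM were scaled by the median of ratios, and log2(scaled TPM + 0.1) was fitted with limma (3.58.1, R 4.3.3) with a trend. A gene was tested where 2 or more libraries of a model reached 1 TPM, and p-values were adjusted by Benjamini-Hochberg over all of them. One model held the 6 PB libraries, one the 4 PC libraries and one all 10. Fold changes are on the log2(scaled TPM + 0.1) scale, which understates changes of low genes. The fit was also tested on simulated data. These held no shift between libraries, so this test cannot speak to the dependence of the calls on scaling. Common Mist1 regions were overlaps of at least 1 bp (bedtools 2.31.1), placed with GENCODE gene models on mm9, where Spi1 is listed by its older symbol. The start site was that of the transcript with the longest coding sequence.

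The 10 genes and all lists were chosen with earlier results of these data known. Besides the 10 genes, the targeted genes, Prdm1 and Irf4, the text names, from each list, the gene with the smallest adjusted p in each direction and up to 4 with the highest mean TPM. Other genes, such as S1pr1, Fcer2a and the markers named, were picked after their values were seen. Scaling, pseudocount, filter, variance trend, the groups fitted, each library left out, peak overlap and start site distance were varied.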

Additional observations from a re-analysis of the deposited data

Results flagged for a closer look

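Bhlha15 differed between PCs and PBs in the size of its loss, as tested by an interaction term in limma over all 10 libraries. The log2 fold change was -8.51 between Mist1-deficient and control PBs and -3.99 between Mist1-deficient and control PCs, and the difference was 4.54 (SE 0.45, adjusted p = 0.00337). Bhlha15 was at 0.210 and 0.551 TPM in PBs of the knock-in and at 14.4 and 16.6 TPM in PCs of the Cd23-Cre deletion, compared to 176 and 159 TPM and to 258 and 242 TPM in the respective controls. The allele and the cell type differed together and cannot be told apart.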

How the results depend on the processing

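No paired analysis was possible because the labels carry no replicate numbers, and the numbers used here only name libraries. Of 866 log2 fold changes of the 10 genes under alternative settings, 827 kept their side of the threshold, 7 lost significance, 32 gained it and 0 changed sign while called. Values that were not called could change sign and still count among the 827, as Klf2 did between Mist1-deficient and control PBs (-0.67 to 0.76). Between Xbp1-deficient and control PBs, 2 of the genes were called, compared to 5 with TPM as deposited, 4 with quantile normalization and 1 to 3 when a library was left out, and 3436 of all genes, compared to 1822 to 4239 when a library was left out. Between Mist1-deficient and control PBs, 39 of all genes were called, compared to 86 with TPM as deposited, 75 with quantile normalization, 67 at a mean of at least 5 TPM, 17 without the variance trend and 3 to 58 when a library was left out. Between Mist1-deficient and Xbp1-deficient PBs, 1 of the genes was called, compared to 7 with TPM as deposited, 4 with quantile normalization, 2 at a mean of at least 5 TPM, 2 with only the groups compared and 1 to 2 when a library was left out, and 3287 of all genes, compared to 5243 with TPM as deposited and 2128 to 3929 when a library was left out. Between Mist1-deficient and control PCs, 1 of the genes was called, compared to 0 without a filter, 0 without the variance trend and 0 to 3 when a library was left out, and 3554 of all genes, compared to 2240 without the trend and 1110 to 4257 when a library was left out. For the difference of the Mist1 effects between PCs and PBs, 0 to 1 of the genes were called when a library was left out, and 809 of all genes, 31.8% of them higher, compared to 323 without the trend, 151 to 954 when a library was left out and 1208, 43.8% of them higher, with quantile normalization. The cause of these shifts was not tested. Leaving out a library leaves 1 in its group, which is assumed to vary like the others. The unknown depth limits what can be said of genes near 0, such as Bach2 in PBs.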
